A study of Mus musculus with 6 samples.

Results

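Accessible chromatin was examined at 10 genes that pattern the ventral neural tube in neural stem/progenitor cells (NSPCs) with and without the SRR2–18 enhancer cluster of *Sox2*: *Shh*, *Foxa2*, *Nkx2-1*, *Nkx2-2*, *Nkx2-9*, *Nkx6-1*, *Nkx6-2*, *Dbx1*, *Dbx2* and *Sim2*. Accessibility was measured by ATAC-seq, in which Tn5 transposase inserts adapters into open DNA, and an interval is a stretch of the genome that the authors called as accessible. An interval was given to a gene when its strongest summit, the point with the highest fold enrichment, lay at most 50 kb from a transcription start site (TSS) of that gene and no TSS of another protein-coding gene was nearer. By this rule the 10 genes held 34 of 82885 intervals in the parent list and 40 of 107480 in the deletion list, together 74 of 190365.

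Both lines were derived from 129S1/Cast F1 hybrid mouse embryonic stem cells (ESCs) in which *Sox2* carries an mCherry tag on the 129S1 allele, so this tag was shared by all samples. The parent line, Clone 5B, carried no deletion, and the deletion line, Clone 47D, lacked SRR2–18 on both alleles after Cas9 cutting at the ESC stage. After neural differentiation, 3 cultures of each were kept in N2B27 medium with EGF and bFGF, on plates coated with laminin and poly-d-lysine. Each genotype is 1 clone, so an effect of the deletion and a difference between clones cannot be told apart.

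The peak lists used here are pooled over the cultures of a genotype. Values per culture were not analysed here, so no difference between genotypes was tested. The number of reads over each summit was solved from the authors' fold enrichment and −log10 p and divided by the genome-wide background of its list, 38.8 reads in the parent and 19.7 in the deletion list, which are the heights given below. The 95% Poisson intervals printed with some heights cover counting error only, and not the spread between cultures. In such bulk samples, fewer cells with an open site and a less open site in every cell cannot be told apart, and the 2 alleles were not separated. An interval missing from a list was not called there, which does not show that the DNA was closed. All 7 neural progenitor markers examined (*Nes*, *Sox1*, *Sox2*, *Vim*, *Fabp7*, *Hes5* and *Slc1a3*) had an interval within 1 kb of their TSS in both lists, and none of 4 pluripotency markers had one in either. Of 4 neuronal markers, 2 had such an interval in the parent list (*Snap25* and *Syt1*) and 4 in the deletion list. Of 6 endoderm markers 4 had one in each list, *Gata4*, *Gata6* and *Foxa3* in both, *Ttr* in the parent alone and *Sox17* in the deletion list alone. Notochord and mesoderm markers gave 1 of 4 in the parent and 2 of 4 in the deletion list. Over all protein-coding genes, 60.6% in the parent and 63.8% in the deletion list had such an interval. The part of other cell types in the results below was not tested.

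In the embryo, Sonic hedgehog, encoded by *Shh*, is secreted by the notochord and then by the floor plate, the ventral midline of the neural tube. It binds Patched receptors, which releases Smoothened and sends GLI transcription factors to their target genes. Along its ventral to dorsal gradient, progenitors express different homeodomain factors that repress one another across sharp borders: the NKX2 and NKX6 factors are switched on by the signal, whereas DBX1 and DBX2 mark more dorsal progenitors. FOXA2 is the defining factor of the floor plate, and NKX2-1 marks the ventral forebrain and hypothalamus.

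Sequences at the tallest parent-only and deletion-only intervals and at the overlapping pair most raised in the deletion list are shown first. Windows that touched an annotated exon were left out, among them those of the most lowered pair, at *Nkx6-2* in a *Cfap46* intron. Each sequence is 200 bases of the mm10 reference (GRCm38) centred on the strongest summit and read along the plus strand. The cells are F1 hybrids, so their own alleles can differ from this reference. Capitals mark matches to the short consensus sequences that were searched and are described further on. None of the 6 summits lies in an annotated exon. The first lies in an intron of *Inpp5a*, downstream of *Nkx6-2*, at chr7:139545082-139545281, and had the highest summit of any parent-only interval at the 10 genes.
Nkx6-2, parent only: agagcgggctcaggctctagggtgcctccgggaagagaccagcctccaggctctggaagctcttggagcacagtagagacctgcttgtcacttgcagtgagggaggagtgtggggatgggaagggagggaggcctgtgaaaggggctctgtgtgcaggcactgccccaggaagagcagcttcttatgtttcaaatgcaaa
The tallest deletion-only interval was intergenic, upstream of *Sim2*, at chr16:94059764-94059963.
Sim2, deletion only: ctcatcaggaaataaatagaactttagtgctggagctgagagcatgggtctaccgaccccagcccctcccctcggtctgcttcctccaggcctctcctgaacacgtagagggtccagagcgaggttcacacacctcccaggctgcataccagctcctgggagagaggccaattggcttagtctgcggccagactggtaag
At *Dbx1* the same overlapping pair of intervals in an intron of *Nav2* had its strongest summit at a different place in each genotype, at chr7:49601278-49601477 in the parent and at chr7:49601618-49601817 in the deletion list.
Dbx1, parent summit: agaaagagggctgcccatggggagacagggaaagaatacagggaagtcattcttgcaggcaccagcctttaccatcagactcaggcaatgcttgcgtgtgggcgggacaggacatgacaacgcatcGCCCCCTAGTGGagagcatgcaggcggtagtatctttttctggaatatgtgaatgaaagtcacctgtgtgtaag
Dbx1, deletion summit: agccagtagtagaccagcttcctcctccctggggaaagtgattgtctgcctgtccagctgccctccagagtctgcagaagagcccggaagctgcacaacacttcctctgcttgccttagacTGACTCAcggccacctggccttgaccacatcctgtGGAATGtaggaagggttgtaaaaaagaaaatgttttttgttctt
*Dbx2* shared no interval between the genotypes, and its tallest parent-only window at chr15:95667283-95667482 is set beside its tallest deletion-only window at chr15:95612733-95612932.
Dbx2, parent only: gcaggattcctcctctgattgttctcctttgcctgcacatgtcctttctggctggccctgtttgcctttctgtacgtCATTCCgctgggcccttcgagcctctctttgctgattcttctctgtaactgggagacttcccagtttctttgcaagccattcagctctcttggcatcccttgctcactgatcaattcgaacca
Dbx2, deletion only: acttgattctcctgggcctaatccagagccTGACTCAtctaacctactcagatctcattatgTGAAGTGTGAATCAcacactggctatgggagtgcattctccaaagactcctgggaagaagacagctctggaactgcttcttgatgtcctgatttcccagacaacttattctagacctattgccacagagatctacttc
No match lay in the *Nkx6-2* and *Sim2* windows. In the *Dbx1* windows the parent summit had a match to the core of the CTCF motif and the deletion summit one to AP-1 and one to TEAD. The deletion-only *Dbx2* window held 2 AP-1 matches and, directly before the second of them, an NKX2 match, and the parent-only window held a TEAD match.

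*Shh*, which encodes the ligand of the pathway (chr5:28456815-28467256, minus strand), had 6 parent intervals and 4 in the deletion list. Its tallest parent interval stood 2.69 kb upstream of the TSS at a height of 28.5 (95% interval 26.9 to 30.3), and a second stood 9.38 kb upstream at 18.4. Neither had a counterpart in the deletion list, and both lie in introns of the noncoding genes *9530036O11Rik* and *Gm26894*. In the deletion list an interval with its summit 426 bp inside the gene, in the 5′ part of its transcript, reached 7.02 (5.90 to 8.29), where the parent list had none. A shared interval in a *Shh* intron, 2.59 kb downstream of the TSS, had a height of 19.3 in the parent and 8.44 in the deletion list, a ratio of 0.438. The other shared interval, 15.9 kb downstream and beyond the end of the gene, went the other way, from 10.7 to 23.9, a ratio of 2.23. The remaining parent-only intervals, 9.09 and 13.5 kb downstream, were low at 6.67 and 5.92, as was the deletion-only one 47.1 kb downstream at 8.49. At the ligand gene, then, the upstream intervals were parent-only and the weak interval at the TSS deletion-only in the lists as used.

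*Foxa2*, the floor plate factor (chr2:148042877-148046969, minus strand), had 4 parent and 3 deletion intervals, of which 2 in each list overlapped. Both overlapping intervals were close to the TSS. The upstream one, 1.66 kb from it, had a height of 11.0 (10.00 to 12.1) in the parent and 27.2 (25.0 to 29.6) in the deletion list, a ratio of 2.47, and the one with summits 220 and 424 bp upstream of the nearest TSS, in an intron, stood at 6.18 and 11.4, a ratio of 1.85. At the parent's summit of the latter the ratio was 1.70. By fold enrichment over the local surroundings the parent was higher at both, with 9.49 against 8.48 and 5.36 against 3.54. The parent-only intervals lay far out, 25.7 kb downstream at a height of 3.58 and 35.5 kb upstream at 8.16, and the deletion-only interval was 6.33 kb downstream at 13.0. The 3.58 was the lowest height among all member intervals, at an IDR score of 550.

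Among the NKX2 class, *Nkx2-2*, which marks the progenitors next to the floor plate (chr2:147177546-147194243, minus strand), had 3 parent and 5 deletion intervals. Its tallest parent interval lay in an intron 7.80 kb downstream at 42.6 (40.6 to 44.7) and stood at 24.7 (22.6 to 27.0) in the deletion list. A wide parent interval about 8.5 kb upstream, at 24.4, overlapped 2 deletion intervals, at 29.7 and 11.6. At the parent's own summit there the deletion list had 11.6, a ratio of 0.475. At the summit 7.67 kb upstream the parent had 8.21 and the deletion list 29.7, a ratio of 3.61. The ratios at these neighbouring summits thus lay on opposite sides of 1. The summit 7.67 kb upstream of the nearest TSS still lay inside the annotated gene, in an intron of *Nkx2-2* and *Nkx2-2os*. Deletion-only intervals with summits 320 bp and 1.96 kb downstream of the TSS had heights of 8.55 and 5.85, both over *Nkx2-2* exons. The parent-only interval, 19.0 kb upstream in the noncoding *Nkx2-2os*, reached 14.6.

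*Nkx2-9*, expressed beside the floor plate like *Nkx2-2* (chr12:56611389-56613284, minus strand), had 2 parent and 3 deletion intervals and no parent-only one. Its deletion-only interval covered most of the gene, with its strongest summit 1.32 kb downstream of the TSS at a height of 16.8 (15.0 to 18.7). The interval 23.7 kb upstream stood at 22.3 and 12.1 (0.542), and the one about 25 kb downstream stood at 7.70 in the parent and 19.1 in the deletion list (2.48). The summits of the latter were 357 bp apart. At the parent's summit the deletion list had 13.6, a ratio of 1.76.

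*Nkx6-1*, needed for motor neuron progenitors (chr5:101658139-101664996, minus strand), had the most accessible promoter of the 10 genes. Its summit 408 bp upstream of the TSS stood at 79.8 (77.0 to 82.7) in the parent and 88.8 (84.7 to 93.1) in the deletion list, a ratio of 1.11. It was the only parent interval of the gene. The deletion list added one 1.61 kb downstream in an intron, at 21.3, with a fold enrichment over its local surroundings of only 4.12 (top 94.8% of the list). Another stood 22.9 kb upstream, at 5.75, the lowest of the deletion heights. The near relative of *Nkx6-1*, *Nkx6-2* (chr7:139579376-139582797, minus strand), differed more between the lists. A pair of parent-only intervals in introns of *Inpp5a*, 37.6 and 44.1 kb downstream, had heights of 75.1 (72.4 to 77.9) and 32.1 (30.3 to 33.9). A shared interval 33.3 kb upstream, in a *Cfap46* intron, stood at 31.0 in the parent and 8.75 in the deletion list, a ratio of 0.282. At the parent's own summit the deletion list had a listed summit of 50 reads, a height of 2.54, which gives a ratio of 0.0820 (0.0605 to 0.109). By contrast, the *Nkx6-2* TSS had an interval in the deletion list alone, with its summit 346 bp downstream at 14.8 (13.2 to 16.6), and the interval 7.68 kb upstream was similar at 11.4 and 14.0.

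*Dbx1*, which marks the p0 progenitors at the border between ventral and dorsal cord (chr7:49631499-49636849, minus strand), had 5 intervals in each list, 4 of them overlapping. The interval in the *Nav2* intron, 35.1 kb downstream, had the greatest summit height at any of the 10 genes, with 2667 reads and a height of 136 (131 to 141) in the deletion list. By −log10 p it was in the top 0.898% of that list, and by fold enrichment over its local surroundings, 22.6, in the top 6.46%. In the parent list the overlapping interval reached 13.2, with its summit 340 bp away, which placed it in the top 52.6% by −log10 p. Its fold enrichment there was 12.3, in the top 38.0%. The ratio of the heights of the strongest summits was 10.3, so the fold enrichments differed less than the heights. Only 1.19% of all overlapping pairs had a ratio of 10 or more. The parent interval also had a weaker listed summit 33 bp from the deletion summit, of 182 reads and a height of 4.69, and against that summit the ratio was 29.0 (24.9 to 33.8). The deletion list had no summit within 100 bp of the parent's CTCF-matching one. Inside the gene, the interval over an exon 3.18 kb downstream went from 7.52 to 16.7 (2.23), and the pair nearest to the TSS, with summits 2.34 and 1.60 kb downstream, overlapped by only 13 bp. *Dbx2*, its relative, is expressed in a wider domain (chr15:95623563-95655960, minus strand). It had 3 intervals in each list and none in common. The parent ones were distal, at heights of 35.8 (33.9 to 37.7) 11.4 kb upstream, 33.3 (31.5 to 35.1) 35.8 kb upstream and 9.86 46.9 kb downstream. In the deletion list, 2 of the 3 lay within the first 3 kb of the gene, over an exon 1.38 kb downstream at 13.7 (12.1 to 15.4) and in an intron 2.75 kb downstream at 17.8 (15.9 to 19.7). The third, 43.1 kb downstream, reached 23.9.

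*Nkx2-1*, the ventral forebrain factor (chr12:56531958-56536908, minus strand), had 2 parent and 4 deletion intervals. Both parent intervals overlapped deletion ones, one in an exon 194 bp downstream of a TSS at 7.13 and 9.31, the other 4.35 kb upstream over an exon of the noncoding *Gm26973* at 16.2 and 16.0. The deletion list added an interval at 7.53 with its summit 772 bp upstream of the nearest TSS, in an intron of *Nkx2-1* and *Gm26973*. It also added one 13.9 kb downstream at 9.26. *Sim2*, a bHLH–PAS factor of the ventral midline and hypothalamus (chr16:94084931-94127032, plus strand), had the most deletion-only intervals of the 10 genes. Of its 7 deletion intervals 5 were deletion-only, 3 of them with heights between 5.85 and 8.34 and the others at 9.51 and 26.5, the last one 25.1 kb upstream. A shared interval 9.36 kb upstream stood at 12.4 (11.3 to 13.5) in the parent and 36.6 (34.0 to 39.4) in the deletion list, a ratio of 2.96, while the interval at the TSS was 14.4 and 15.5. Of the 2 parent-only *Sim2* intervals the taller, over an exon 38.5 kb downstream, had a height of 35.3.

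**Figure D1:**
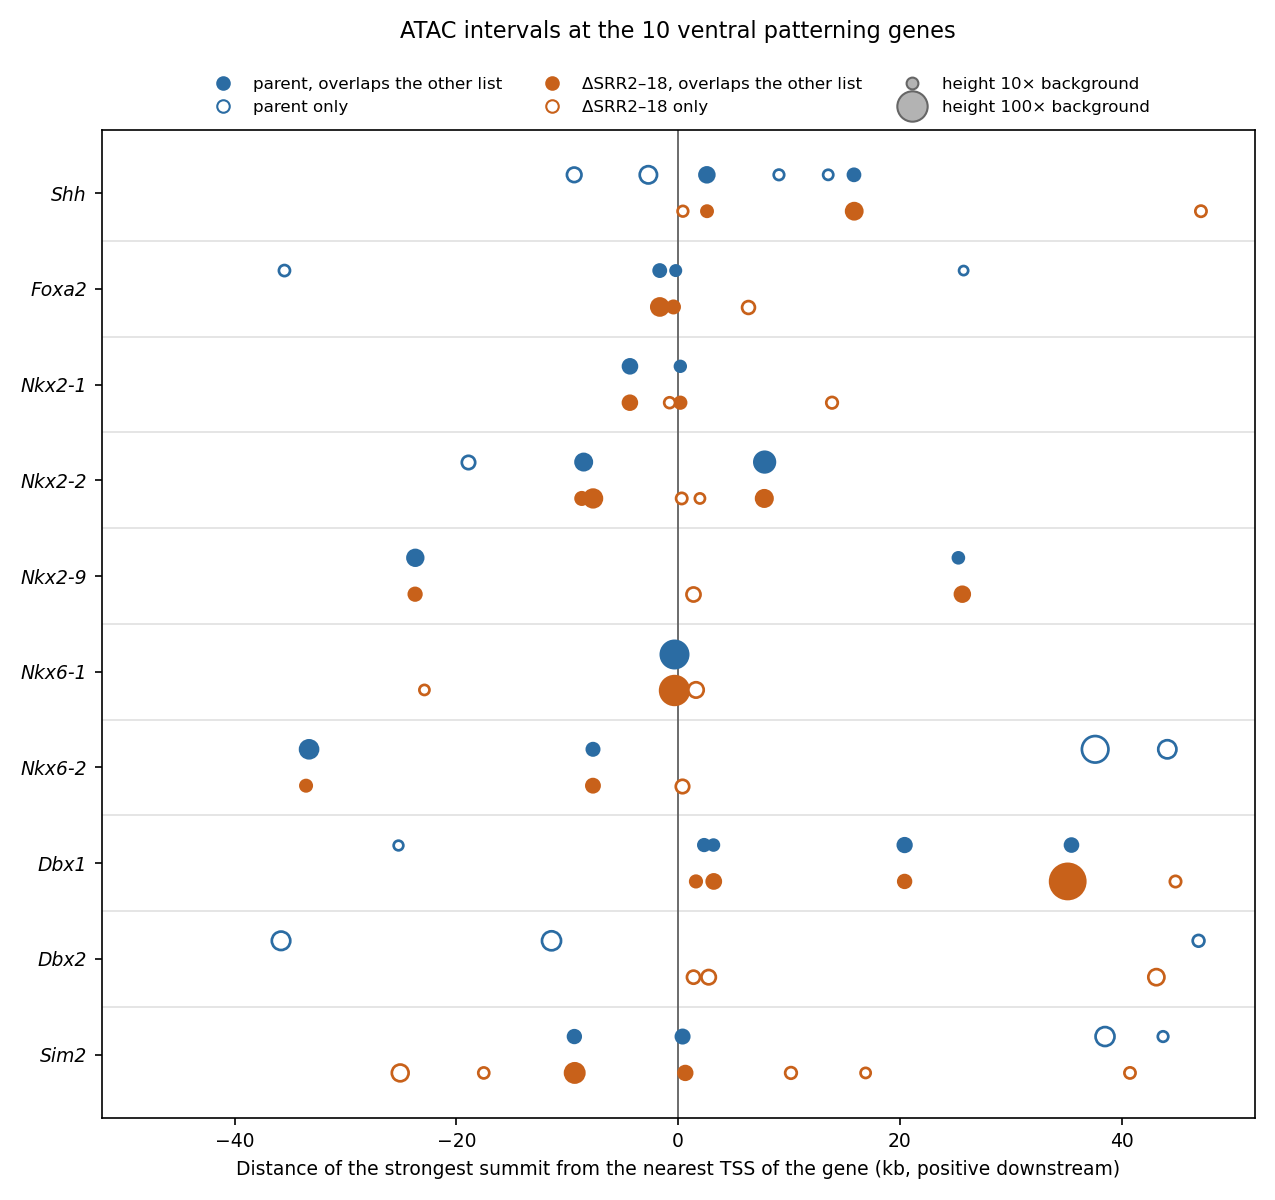
Each point is one interval, placed by the distance of its strongest summit from the nearest TSS of the gene (x axis, kb) with the parent list above (blue) and the deletion list below (orange) for each gene; area grows with summit height in multiples of the background, and open points have no overlapping interval in the other list. Deletion-only points within 3 kb of the TSS appear at *Shh*, *Nkx2-1*, *Nkx2-2*, *Nkx2-9*, *Nkx6-1*, *Nkx6-2* and *Dbx2*, and the large open blue points at *Nkx6-2* and *Dbx2* lie 11.4 kb or more from the TSS.

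Summed over the 10 genes, 15 of 34 parent intervals were parent-only, 44.1%, and 20 of 40 deletion intervals were deletion-only, 50.0%. Over all intervals the shares were 52.3% and 63.1%, so specific intervals were no more frequent at these genes than elsewhere in either list. Deletion-only intervals outnumbered parent-only ones at 5 genes (*Nkx2-1*, *Nkx2-2*, *Nkx2-9*, *Nkx6-1* and *Sim2*), parent-only ones outnumbered at 3 (*Shh*, *Foxa2* and *Nkx6-2*), and both *Dbx* genes were even. Among all 17643 genes with an interval, 45.1% had more deletion-only, 27.2% more parent-only and 27.7% equal numbers. Among specific intervals the parent-only ones at the 10 genes were the taller, with a median height of 14.6 against 9.03 for the deletion-only ones. Over all intervals the order was the other way, 12.3 for parent-only and 14.7 for deletion-only. All but 1 of the 35 specific intervals at the 10 genes were also missing from the optimal IDR list of the other genotype, which is the longer list the authors deposited.

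**Figure D2:**
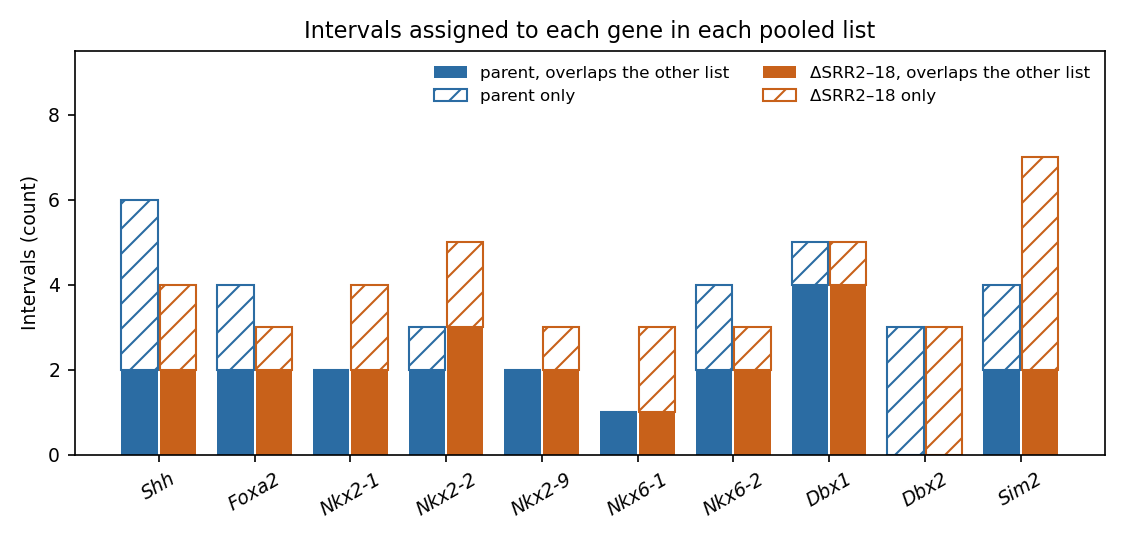
Bars give the number of intervals (y axis) assigned to each gene in the parent (blue) and deletion (orange) list, with those that overlap the other list filled and those found in one list only hatched. *Dbx2* has no filled part, and *Sim2* has the tallest hatched part with 5 deletion-only intervals.

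The specific intervals lay at different distances in the 2 lists. Within 5 kb of the TSS were 9 of 20 deletion-only intervals, 45.0%, but 1 of 15 parent-only ones, 6.67%. Over all genes the shares within 5 kb were 19.6% and 18.0% of the specific intervals assigned by the same rule. Beyond 30 kb were 7 of the 15 parent-only and 4 of the 20 deletion-only intervals. The median distance from the TSS was 25744 bp for parent-only and 8249 bp for deletion-only intervals at the 10 genes, against 16284 and 16022 bp over all. The 10 genes are isolated, with the next protein-coding TSS between 76.1 and 819 kb away on either side. The difference in distance depended on how the lists were cut. With the deletion list shortened by fold enrichment to the length of the parent list, 3 of 11 deletion-only and 6 of 20 parent-only intervals lay within 5 kb, 27.3% and 30.0%. At equal depth, obtained by scaling down the parent reads, and with a −log10 p of 50 or more the counts were 8 of 17 and 1 of 12, and at an IDR score of at least 830 they were 8 of 18 and 2 of 13. The distances were summarised this way after the values had been seen.

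**Figure D3:**
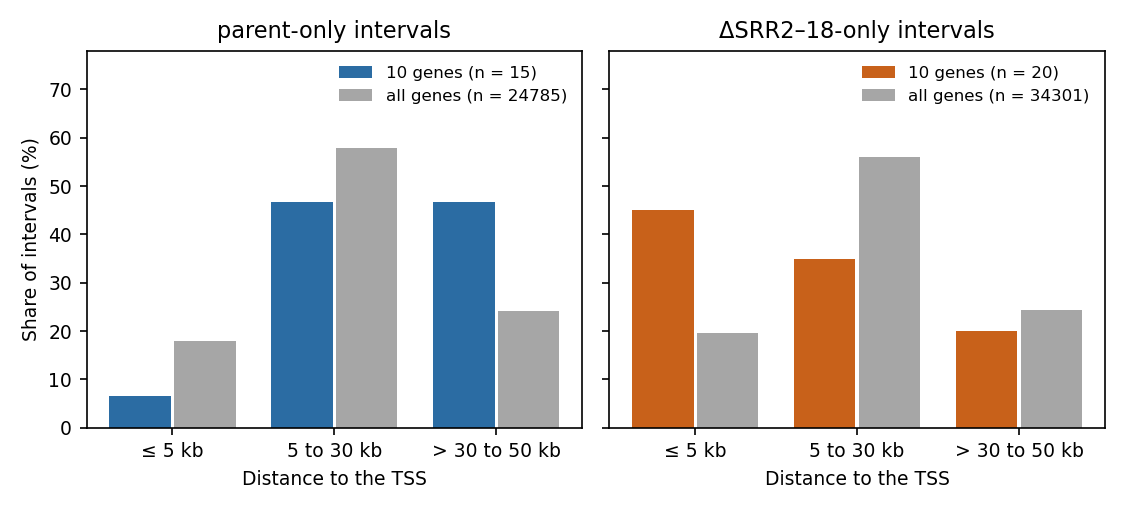
Share of parent-only (left) and deletion-only (right) intervals, in percent (y axis), by distance of the strongest summit from the TSS, for the 10 genes (coloured) and all genes (grey). Of the deletion-only intervals at the 10 genes 45.0% lie within 5 kb against 19.6% over all genes, and of the parent-only ones 6.67% against 18.0%.

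Intervals at the TSS were then counted gene by gene, which uses some of the same intervals again and adds no independent support. In the parent list 4 of the 10 genes had a strongest summit within 1 kb of one of their own TSSs (*Foxa2*, *Nkx2-1*, *Nkx6-1* and *Sim2*), and in the deletion list these 4 and *Shh*, *Nkx2-2* and *Nkx6-2* had one. Thus 3 genes had a TSS interval in the deletion list alone and none in the parent list alone, against 5.94% and 2.77% of 21911 protein-coding genes. Another 57.8% of those genes had one in both lists and 33.5% in neither. With 2 kb in place of 1 kb, a distance chosen after the values were seen, the counts were 4 of 10 in the parent and 10 of 10 in the deletion list, beside 63.3% and 67.0% of all genes. The added summits were those of *Nkx2-9*, *Dbx1* and *Dbx2*.

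Most of these promoter intervals were low by fold enrichment, and their call depends on how the lists are cut. Apart from *Nkx6-1*, the deletion summits within 1 kb of a TSS had fold enrichments over their local surroundings between 3.54 and 6.08, which placed them at the top 81.3% to 97.1% of the deletion list. By height, those of *Sim2* (15.5) and *Nkx6-2* (14.8) stood above the median of 12.7 over the deletion intervals at the 10 genes, and the others below it. When the deletion list was shortened by fold enrichment to the length of the parent list, only *Nkx6-1* of the 10 genes kept a TSS interval there against 4 genes in the parent list, which turns the order round. At 2 kb both shortened lists had 4 genes. At equal depth, with only intervals of a −log10 p of 50 or more kept, the counts were 3 and 7. With an IDR score of at least 830 they were 3 and 6, as *Foxa2* was lost from the parent and *Shh* from the deletion list.

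The 20 overlapping pairs at the 10 genes had a median height ratio, deletion over parent, of 1.16, and the 40114 pairs of the whole lists one of 0.847, a shift of −0.24 on the log2 scale. At least 2-fold higher in the deletion list were 6 pairs, at *Shh*, *Foxa2*, *Nkx2-9*, *Dbx1* (2) and *Sim2*, beside 16.0% of all pairs. At least 2-fold lower were 3, at *Shh*, *Nkx2-2* and *Nkx6-2*, beside 16.5%. Relative to the median of all pairs, 7 were at least 2-fold higher and 1, at *Nkx6-2*, at least 2-fold lower, beside 19.4% and 11.8%. Within 5 Mb of each gene the median ratio of all pairs lay between 0.775 and 1.01. Of the 6 pairs at least 2-fold higher, 5 also had the greater fold enrichment over the surroundings in the deletion list, all but *Foxa2* (9.49 in the parent and 8.48 in the deletion list), beside 89.5% of such pairs overall. Over the 20 pairs, 7 ranked higher in the deletion list by fold enrichment and 9 by −log10 p, beside 42.8% and 45.4% of all pairs.

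**Figure D4:**
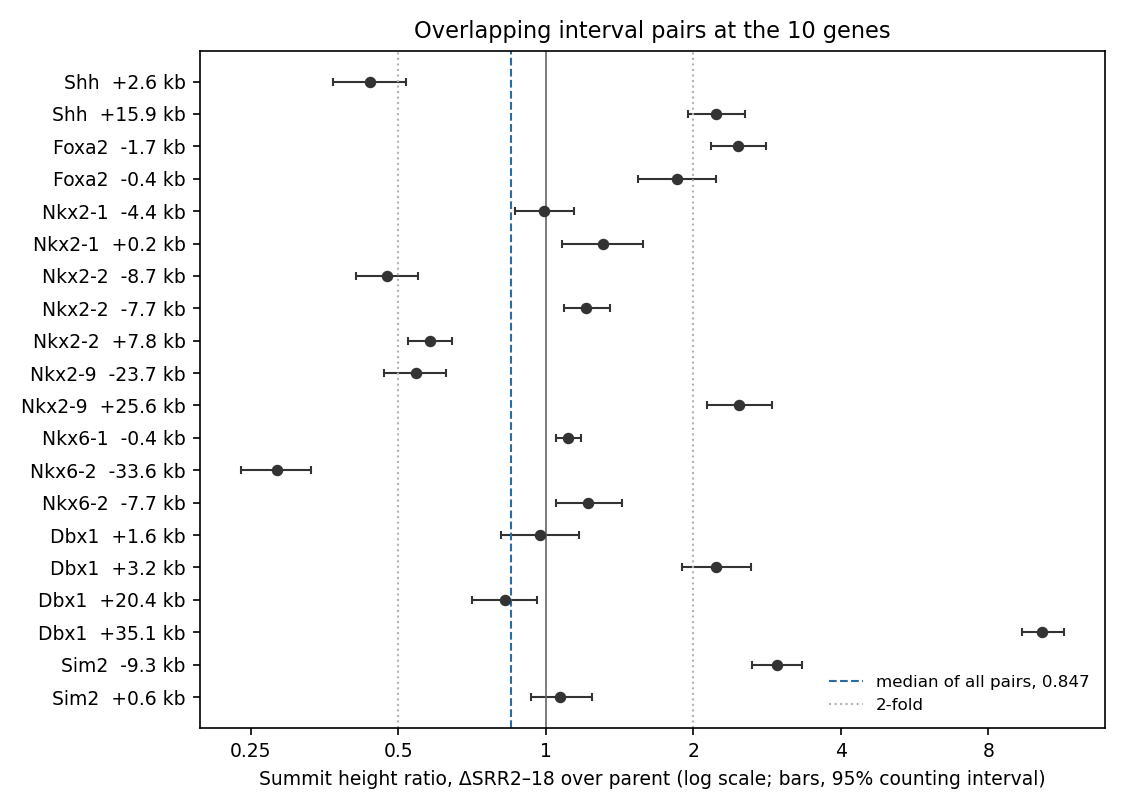
Points are the ratios of strongest summit heights, deletion over parent (x axis, log scale), of the 20 overlapping pairs, named by gene and by the distance of the deletion summit from the TSS, with bars for the 95% counting interval. The blue dashed line is the median of all pairs, 0.847, and the dotted lines mark 2-fold; the *Dbx1* pair in the *Nav2* intron stands alone at 10.3 and the *Nkx6-2* pair in *Cfap46* is lowest at 0.282.

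The short sequences around the summits were then read, by searching both strands, up to 100 bp to each side of an interval's strongest summit, for the exact letters of short consensus sequences: GLI (GACCNCCCA), SOX (ACAANGG), AP-1 (TGANTCA), forkhead (TGTTTAC), NKX2 (TNAAGTG), homeodomain (TAATTA), HOX–PBX (TGATTNAT), CDX and posterior HOX (TTTATNG), TEAD (GGAATG) and the core of the CTCF motif (CC, 3 free bases, AG, 2 free bases and GGC). A match describes the letters of the reference and not binding. No member interval of either list had a GLI match in this window, beside 0.537% of all parent and 0.484% of all deletion intervals. In the full length of the intervals there was 1, with the letters gacctccca, at chr2:148045522-148045530 in the deletion interval at the *Foxa2* TSS, outside the window around its strongest summit. Over their full length 2.27% of all parent and 1.84% of all deletion intervals had one.

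Of the 20 deletion-only intervals at the 10 genes 2, 10.0%, had an AP-1 match, at *Nkx6-1* 22.9 kb upstream and at *Dbx2* 43.1 kb downstream, whereas 50.7% of all deletion-only intervals did. Their windows were rich in G and C, with a median of 61.9% against 45.8% over all deletion-only intervals. Restricted to those over 1 kb from any TSS, the AP-1 shares were 13.3% and 51.6%. Among the 15 parent-only intervals none had a SOX match, beside 18.8% of all parent-only intervals. These shares rest on 0 to 2 intervals.

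At intervals that both lists held, AP-1 matches were as follows. In 4 of the 20 overlapping deletion intervals the strongest summit had one, with the letters TGACTCA at *Dbx1* in the *Nav2* intron. The letters were TGAGTCA at *Nkx2-2* in an intron 7.67 kb upstream of the nearest TSS, at *Nkx2-9* 25.6 kb downstream and at *Sim2* 9.33 kb upstream. Their height ratios were 10.3, 1.21, 2.48 and 2.96, and 3 of the 4 were at least 2-fold. Of all 40114 pairs, 6479 had an AP-1 match at the deletion summit, which is the count to set beside the 4 of 20. Over those 6479 pairs the median ratio was 1.52 and 40.3% were at least 2-fold higher. For pairs with a match at neither summit the values were 0.803 and 11.1%. In 3 of these 4 the parent's strongest summit lay elsewhere and had no AP-1 match, so these ratios compare neighbouring summits. The *Sim2* site was within 100 bp of both summits.

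CTCF is the zinc-finger protein that marks boundaries of chromatin loops, and the search for its core gave the following. Of the 19 overlapping parent intervals 8 had one, 42.1%, and of the 20 overlapping deletion intervals 8, 40.0%, beside 17.9% and 17.5% of all overlapping intervals. The fixed letters of this core are mostly G and C, and the G and C content of the windows was not taken into account here. In 6 pairs the same site was within 100 bp of both strongest summits. Read along the consensus, with its fixed letters in capitals, these were:
Shh, 15.9 kb downstream, chr5:28451371-28451382: CCaccAGagGGC
Foxa2, 1.66 kb upstream, chr2:148048646-148048657: CCgacAGggGGC
Nkx2-1, 4.35 kb upstream, chr12:56541283-56541294: CCagtAGagGGC
Nkx2-9, 23.7 kb upstream, chr12:56636988-56636999: CCtctAGatGGC
Nkx6-2, 7.68 kb upstream, chr7:139590480-139590491: CCtccAGgtGGC
Dbx1, 20.4 kb downstream, chr7:49616428-49616439: CCagcAGagGGC
The height ratios of these 6 pairs ranged from 0.542 at *Nkx2-9* to 2.47 at *Foxa2*, with a median of 1.11. The site CCactAGggGGC under the parent summit in the *Nav2* intron (chr7:49601404-49601415) was not near a listed summit in the deletion list, and CCgctAGatGGC (chr5:28469966-28469977) lay under the tallest *Shh* interval, which was parent-only.

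**Figure D5:**
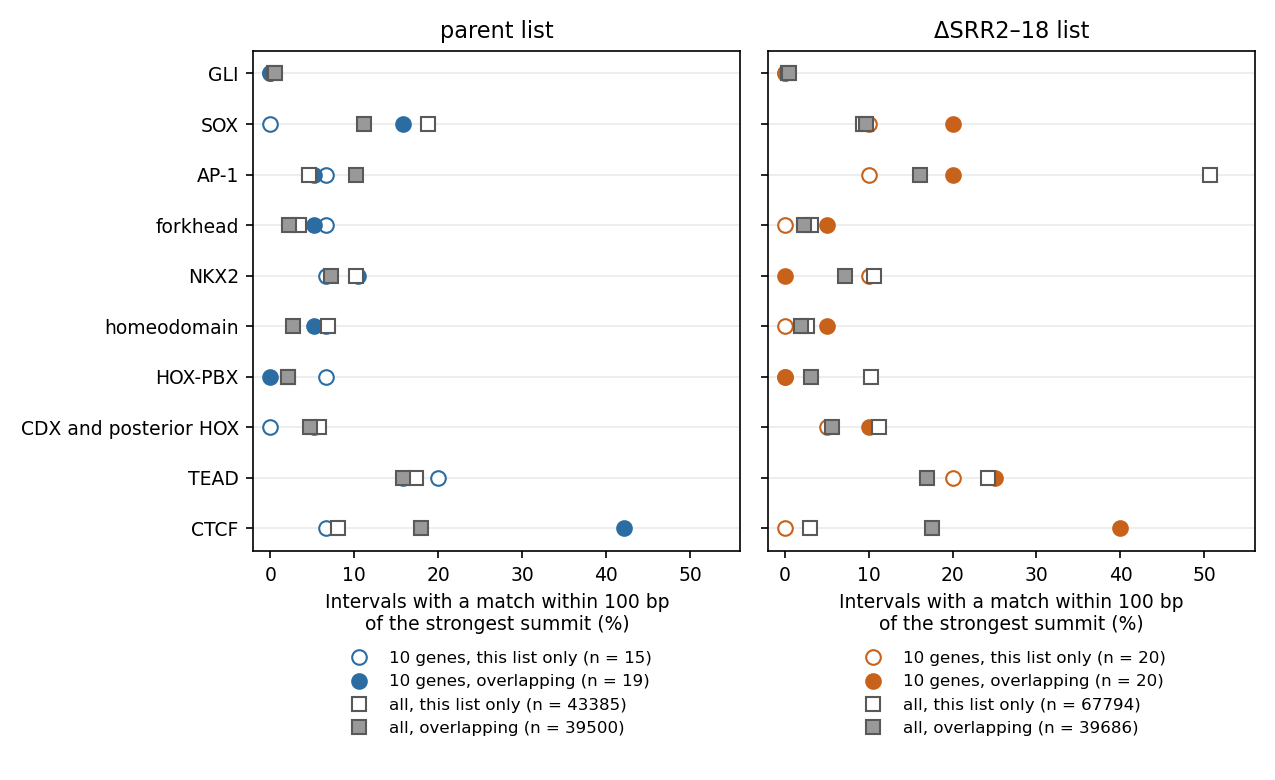
Share of intervals with a consensus match within 100 bp of the strongest summit (x axis, percent) in the parent (left) and deletion (right) list, for the 10 genes (circles) and all intervals (squares), open for intervals of one list only and filled for overlapping ones. CTCF stands at 42.1% and 40.0% in the overlapping intervals of the 10 genes, and AP-1 at 10.0% in their deletion-only intervals against 50.7% over all.

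The other genes of the pathway were read in the same way. All 11 genes of hedgehog transduction that were read (*Ptch1*, *Smo*, *Gli1*, *Gli2*, *Gli3*, *Sufu*, *Hhip*, *Boc*, *Cdon*, *Gas1* and *Disp1*) had a TSS interval in both lists. A TSS interval in both lists was held by 57.8% of protein-coding genes. The 11 genes held 45 parent-only of 82 and 49 deletion-only of 86 intervals, 54.9% and 57.0%, beside 52.3% and 63.1% of all intervals. Deletion-only intervals were in excess at 5 genes and parent-only at 3, beside 45.1% and 27.2% of all genes with an interval. *Ptch1*, the receptor and a GLI target, had 9 parent-only and 1 deletion-only interval, and the coreceptor gene *Boc* 8 and 0. *Gli3*, the main repressor among the GLI factors, had 3 and 10, and *Disp1*, which releases the ligand from cells that make it, 7 and 16.

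The 11 other progenitor domain factors had 39 parent-only of 64 and 30 deletion-only of 54 intervals, 60.9% and 55.6%. Over all intervals the shares were 52.3% and 63.1%, which also stand beside the counts below. *Olig1* and *Olig2*, of the motor neuron and oligodendrocyte progenitors, had 9 parent-only intervals each, and 1 and 3 deletion-only ones. *Pax3*, a dorsal factor, had 0 and 4. A TSS interval was held by 7 and 10 of the 11 genes in the parent and the deletion list, beside 60.6% and 63.8% of protein-coding genes. The 11 factors of postmitotic ventral neurons had 15 of 41 and 21 of 46, 36.6% and 45.7%. Deletion-only intervals were in excess at 7 of these genes, such as *Evx1* of V0 interneurons with 1 and 4, and parent-only ones at 3, such as *Lhx4* with 5 and 0. Over all genes with an interval, 45.1% had more deletion-only and 27.2% more parent-only intervals. Of these 11 genes 10 had a TSS interval in the parent and 9 in the deletion list. The gene with one in the parent list alone had its nearest strongest deletion summit 1002 bp from the TSS, just past the 1 kb limit. The 7 homologues of the members (*Nkx2-3*, *Nkx2-4*, *Nkx2-5*, *Nkx6-3*, *Foxa3*, *Ihh* and *Dhh*) had 6 of 22 and 9 of 24 specific intervals, 27.3% and 37.5%. In each list 3 of the 7 had a TSS interval, *Nkx2-4* and *Foxa3* in both, *Dhh* in the parent alone and *Nkx2-3* in the deletion list alone.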

How the data were processed

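The authors aligned ATAC-seq reads to mm10 and called peaks with MACS2 in the ENCODE ATAC-seq pipeline (v1.10.0), and the files hold the IDR-filtered peaks of each genotype, pooled over 3 cultures, as a conservative and an optimal list. The deposited columns used were the scaled IDR score, the fold enrichment (a ratio to the local background), the −log10 p and the summit position. Aligner settings are not given in the sources used here, and deepTools is named in the submitters' processing notes.

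Conservative lists were used, with each distinct interval counted once. Reads n and background b at a summit were solved from fold = (n + 1)/(b + 1) and the Poisson −log10 p, and were within 0.05 of whole numbers for 99.9993% of parent and 100% of deletion peaks. The lowest b of a list is its genome-wide background, with a ratio, parent over deletion, of 1.98. TSSs came from GENCODE M21 basic, with promoters within 1 kb, and sequences from the RefSeq GRCm38 assembly. Sharing was an overlap of 1 bp, and pairs were called past 2-fold. Heights have exact Poisson and ratios exact binomial 95% intervals. Scripts (Python 3.11.15, numpy 2.4.6, scipy 1.17.1 and pysam 0.24.0) were tested on simulated data. The 10 genes, the other gene lists and the consensus sequences were chosen with earlier results of these data known. All 10 genes were named with their intervals, and of each other list at most the 4 genes with the largest difference between deletion-only and parent-only counts. Some genes of these lists are not reported here, and the list counts leave them out. Alternatives were the optimal lists, stricter IDR and −log10 p, lists of equal length, other distances, overlap rules, summit pairings and motif windows.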

Additional observations from a re-analysis of the deposited data

How the results depend on the processing

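No paired analysis was possible because the lists used are pooled over cultures, and for the same reason no culture was left out. Of 34 parent and 40 deletion intervals, 16 and 24 remained with summits held to 10 kb of the TSS, where 3 were parent-only and 10 deletion-only. At 100 kb there were 55 parent intervals, 32 of them parent-only, and 52 deletion intervals. With lists of equal length the deletion list had 25 intervals at the 10 genes, 11 of them deletion-only, and 1 gene with a TSS interval, or 4 at 2 kb. At both of these settings the parent list had the more intervals, and the shortening itself removes deletion intervals of low fold enrichment. Parent-only intervals within 5 kb of the TSS numbered 1 in the lists as used, 2 in the optimal lists, at an IDR score of at least 830 and with the summit held to the other interval, 3 with 50% reciprocal overlap and 6 with lists of equal length, where deletion-only ones numbered 3 in place of 9. Pairs at least 2-fold lower numbered 1, in place of 3, with summits within 100 bp of each other and also when scaled by the median of all pairs. Over the whole interval, consensus shares in the parent list were 26.5% for SOX, AP-1 and homeodomain, 35.3% for NKX2, 17.6% for CDX and posterior HOX and 52.9% for TEAD, and in the deletion list 22.5% for NKX2, 45.0% for TEAD and 47.5% for CTCF. Within 50 bp, homeodomain was at 0.0% in both lists, CDX and posterior HOX at 0.0% in the parent and forkhead at 0.0% in the deletion list, which it also was over 1 kb from any TSS. Consensus shares over all intervals at these settings are not given here, so the values show only how the member shares moved. Of 220 alternative counts for single genes 51 moved by over 1.5 times. The cause of these moves was not tested beyond what is stated.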

Other observations

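Beyond 50 kb, intervals whose nearest protein-coding TSS was that of one of the 10 genes were more numerous in the parent list, with 62 against 34 in the deletion list, of which 48 and 20 were found in one list only, 77.4% and 58.8%. Over all genes there were 27868 parent and 42814 deletion intervals beyond 50 kb, of which 66.7% and 78.2% were found in one list only. *Foxa2* held 26 and 14 of these, *Dbx1* 19 and 11, and *Shh*, whose regulatory landscape is known to extend far upstream, 9 and 2. All 9 of the parent intervals and both of the deletion intervals in this range at *Shh* were specific to their list. The tallest parent-only ones stood at 63.5 for *Dbx1*, 60.4 for *Shh* and 54.8 for *Nkx6-2*, and the tallest deletion-only one at 47.9, for *Shh*. The RefSeq promoters of the 10 genes (GRCm38) held a GLI consensus match at *Foxa2* only, where 0.977% of 32851 promoters hold one.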
